A study of Mus musculus with 12 samples.

Results

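Tnnt2low and Tnnt2high cardiomyocytes from wild type (WT) hearts were compared by RNA-seq in 4 of the 12 libraries of the study. These 4 were taken by their labels, which give a wild type genotype, the CD1 strain background, the heart as the tissue, cardiomyocytes as the cell type and postnatal day 1. Of them, 2 hold cells with the higher Mitotracker signal, which are the Tnnt2low cells by the study's own description, and 2 hold cells with the lower signal, the Tnnt2high cells. No library was sorted on Tnnt2 itself. The study's methods add that the WT animals carried αMHC-Cre and a YFP reporter at R26, so that the αMHC promoter of cardiomyocytes switches on YFP, and that living cells were sorted on YFP and Mitotracker. The cells used here therefore share Cre and the reporter and differ in the Mitotracker gate. The other 8 libraries are the same 2 populations from aMHC-hGLUT1tg hearts, in which the αMHC promoter drives human GLUT1, with 4 hearts and the same Cre, reporter, strain and age. They entered the fit for the estimate of the spread and serve below as a comparison.

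The WT labels number the libraries 59 and 510, once in each population, and all 4 labels also carry the heart number 9. Libraries with the same number were treated as a pair (pair 59 is replicate 1 of each population, pair 510 is replicate 2). Where 1 of them was left out of a fit, the libraries are called low 59, low 510, high 59 and high 510. Such fits did not keep the pairs, so a difference between the numbers enters their values. The labels do not say that the numbers are separate hearts, so n = 2 counts libraries that may share an animal. In the fit over all 12 libraries the p-values rest on a pooled spread. It holds the spread between the transgenic hearts as well as that between the WT libraries. Each was a bulk library, in which fewer cells of a type and less RNA per cell cannot be told apart.

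At birth the mouse heart grows by division of its cardiomyocytes, and within days most of these cells leave the cell cycle, enlarge their sarcomeres and mitochondria and turn from glucose to fatty acids as fuel. Cardiac troponin T, the product of Tnnt2, ties tropomyosin to the thin filament and is a common marker of cardiomyocytes. Mitotracker dyes collect in mitochondria, mostly according to the potential of their inner membrane. The comparison asks how the RNA of the 2 gates differs in hearts with no transgene.

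The 4 WT libraries held 4975085 to 7483520 reads assigned to genes, within the range of 4065306 to 9815069 over all 12 libraries, and 13179 to 14065 genes with at least 1 read. Values below are CPM, a gene's reads relative to the TMM-scaled total of its library, and a log2 fold change is Tnnt2low over Tnnt2high, so that a positive value is higher in Tnnt2low cells. Of 24421 genes, 12252 passed the filter on low counts and were tested. The 2 numbers differed from each other before any test. Reads that fell outside every exon came to 1.13 per gene read in the Tnnt2low and 1.83 in the Tnnt2high library of pair 59, and to 1.495 and 1.510 in pair 510. In the transgenic hearts they came to 0.886 to 1.07 in Tnnt2low and 2.26 to 2.63 in Tnnt2high libraries, so the gates were apart there as in pair 59. The summed level of 20 endothelial markers was 161 CPM in Tnnt2low and 585 CPM in Tnnt2high cells of pair 59, and 24.7 and 29.1 CPM in pair 510.

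No gene passed the threshold in either direction. At an adjusted p under 0.05 and a fold over 1.5 in edgeR's quasi-likelihood test over all 12 libraries, 0 of 12252 genes (0%) were higher and 0 (0%) were lower in Tnnt2low cells. At an unadjusted p under 0.05 the counts were 147 higher (1.2%) and 234 lower (1.91%). Their sum is below the share of 0.05 that this threshold would give if no gene differed. Both Tnnt2low libraries lay above both Tnnt2high libraries for 1879 genes (15.3%) and below both for 1825 genes (14.9%). With 2 libraries against 2, random order would place a share of 0.333 of genes fully apart, counting both directions. The 2 shares do not add up to more than that, so they are no sign of a difference between the populations. With the pair as a replicate block, 1 gene passed in each direction, the histone gene Hist1h2bj (higher) and the ribosomal protein gene Rpl35 (lower), each at an adjusted p of 0.0461. With DESeq2 on the same 12 libraries, 1 gene was called higher and 2 lower. The block had its widest effect on the 4 WT libraries alone, where 11 genes passed on the higher and 19 on the lower side, in a fit with 1 residual degree of freedom. The 11 were Armcx3, Gm12504, H2afz, Hist1h2ah, Hist1h2bj, Ndufab1, Rpl28, Rpl36a, Rpl36al, Rps6 and Trim7. The 19 were Ccnd1, Fabp4, Fam60a, H2afx, Hadhb, Hist1h2ae, Hist1h2be, Hist1h2bg, Kdr, Ndufb4, Pcdh1, Pdcd5, Rpl18, Rpl23a, Rpl29, Rpl35, Rpl5, Rps13 and Sumo2. The counts at an unadjusted p under 0.05 depended on single libraries. They were 43 higher and 99 lower without the Tnnt2low library of pair 59, 279 and 608 without that of pair 510, 41 and 45 without the Tnnt2high library of pair 59, and 730 and 589 without that of pair 510.

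Tnnt2, on chromosome 1 of mm10 from 135836354 to 135852260, differed little between the gates that bear its name. It stood at 15741 and 16731 CPM in the Tnnt2low and at 16254 and 17201 CPM in the Tnnt2high libraries of pair 59 and pair 510. The populations overlapped, since the Tnnt2low library of pair 510 lay above the Tnnt2high library of pair 59. Within the pairs, Tnnt2low cells had 96.8% and 97.3% of the level of Tnnt2high cells. The log2 fold change was -0.04 (standard error 0.13, 95% interval -0.32 to 0.23, adjusted p = 1 in edgeR), and a two-sided exact permutation test gave p = 0.667, where 2 libraries against 2 cannot go below 0.333. Leaving out each library in turn gave -0.09 to 0.01. Those fits did not keep the pairs, and within each pair the Tnnt2low library was the lower one.

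The 2 pairs did not show the same difference between the populations. For the 7962 genes that averaged 10 CPM or more, the difference between Tnnt2low and Tnnt2high cells exceeded 1.5-fold for 2377 genes (29.9%) in pair 59 and for 295 genes (3.71%) in pair 510. The interquartile range of the log2 difference was 0.77 in pair 59 and 0.26 in pair 510. Across genes, which are not independent replicates, the differences of the 2 pairs correlated at a Pearson coefficient of 0.12 and a Spearman coefficient of 0.04, and 50.9% of the genes had the same sign in both.

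**Figure D1:**
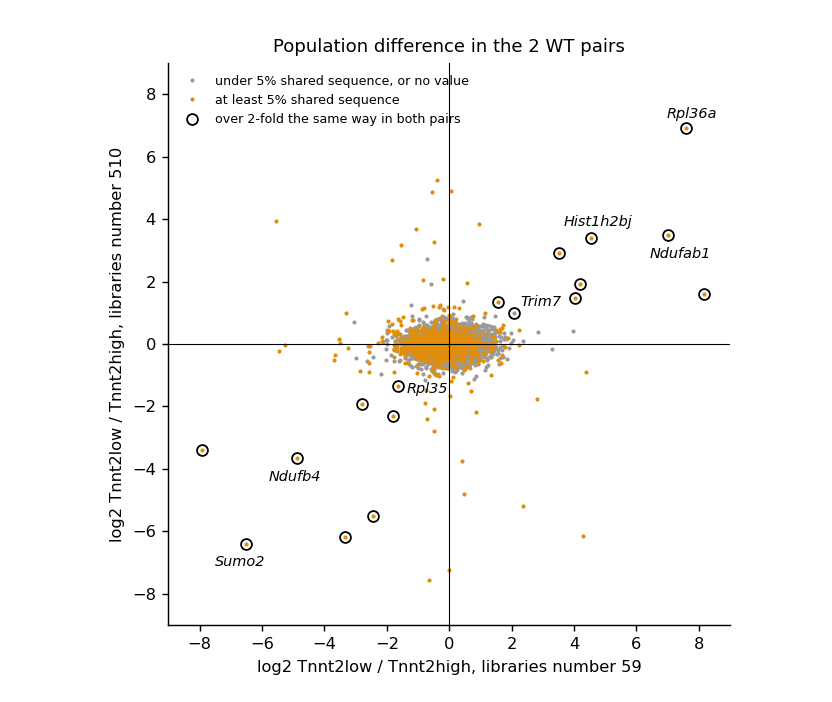
Each point is 1 of 7962 genes that averaged 10 CPM or more over the 4 WT libraries, plotted by its log2 ratio of Tnnt2low over Tnnt2high in the libraries numbered 59 (horizontal) and 510 (vertical). Orange points share at least 5% of their sequence with other genes, and circles mark the 17 genes that were over 2-fold apart in the same direction in both pairs. The cloud is wide along the horizontal axis and narrow along the vertical axis, and away from the origin most points near the diagonal are orange.

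The narrow spread in pair 510 was also smaller than that between replicates. The Tnnt2low and Tnnt2high libraries of pair 510 had the narrowest interquartile range of all 6 pairings of the WT libraries (0.26 on the log2 scale), although they come from opposite gates. The 2 Tnnt2low libraries differed from each other with a range of 0.55 and the 2 Tnnt2high libraries with 0.60. Median chi-square per gene, for which counting noise alone gives a value below 1, was 1.24 between the libraries of pair 510 and 4.32 to 6.08 in the other 5 pairings.

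Genes with sequence of their own were 13 of the 30 leading genes. Of the 30 genes with the smallest p among those whose populations were fully apart (15 in each direction, average of 10 CPM or more, so that their order in the 4 libraries was fixed by the choice), these 13 shared less than 5% of their transcript sequence with other genes. They are described first, and none passed the adjusted threshold in the fit over all libraries.

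Trim7 encodes a ubiquitin ligase that binds glycogenin, the primer of glycogen synthesis. It lies on chromosome 11 of mm10 from 48826140 to 48852209. Its level was 25.02 and 21.1 CPM in Tnnt2low and 5.70 and 10.4 CPM in Tnnt2high cells. Both Tnnt2low libraries were above both Tnnt2high libraries, by 2.07 on the log2 scale in pair 59 and 1.00 in pair 510. The fitted log2 fold change was 1.504 (standard error 0.37, 95% interval 0.71 to 2.30, unadjusted p = 0.00108, adjusted p = 1 in edgeR). With the replicate block on the 4 WT libraries alone the value was 1.54 at an adjusted p of 0.0446 in edgeR, and with the block on all 12 libraries the adjusted p was 0.953. Trim7 was the single gene under 5% shared sequence that was over 2-fold apart in both pairs.

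Msl2, a ubiquitin ligase of the complex that acetylates histone H4 at lysine 16, read 42.4 and 34.7 CPM in Tnnt2low against 18.3 and 22.8 CPM in Tnnt2high cells (log2 fold change 0.90, standard error 0.23). Cdon, a surface receptor that aids Hedgehog signalling and myogenesis, read 37.7 and 35.0 against 13.6 and 24.8 CPM (0.91, standard error 0.30). Sirpa, the receptor for CD47, read 21.0 and 10.9 against 7.33 and 5.65 CPM (1.30, standard error 0.41). In each of these 3 genes the gap was wider in pair 59 than in pair 510. Without the Tnnt2low library of pair 59, the log2 fold change of Sirpa was 0.76. Cdon had 0.55 without the Tnnt2high library of pair 59 and 1.42 without that of pair 510.

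The zinc finger genes Zbtb39 and Hivep2 and the agrin receptor gene Lrp4 also stood above in Tnnt2low cells, with Gm608 and Ammecr1. Zbtb39 was at 21.1 and 24.98 against 9.57 and 13.5 CPM, which is a similar gap in both pairs (1.12 and 0.88 on the log2 scale). Hivep2 was at 58.5 and 47.1 against 29.1 and 38.5 CPM. Lrp4 was at 39.3 and 33.4 against 22 and 24.2 CPM. The Tnnt2low libraries exceeded the Tnnt2high libraries by less in pair 510 than in pair 59 for all 5 of these genes. Gm608, with a log2 fold change of 0.74, ranged from 0.45 without the Tnnt2high library of pair 59 to 1.14 without that of pair 510.

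On the lower side, the genes with little shared sequence were Cox14, Lap3, Uqcc3 and Bola3, of which Cox14 and Uqcc3 encode assembly factors of respiratory complexes IV and III and Bola3 a factor for iron-sulfur clusters of mitochondria. Cox14 read 36.04 CPM in both libraries of Tnnt2low cells and 58.9 and 52.8 CPM in Tnnt2high cells (log2 fold change -0.63, standard error 0.19). Uqcc3 read 22.04 and 26.9 against 43.6 and 38.4 CPM (-0.74, standard error 0.24). Bola3 read 107.8 and 118.1 against 167.2 and 153.1 CPM (-0.50, standard error 0.17). In pair 510 these 3 genes were still lower in Tnnt2low cells, by log2 differences of -0.55, -0.51 and -0.37. Lap3, an aminopeptidase that releases leucine, read 41.1 and 44.3 against 73.1 and 66.2 CPM (-0.71, standard error 0.22). The 4 unadjusted p-values were 0.00553 to 0.00946 in edgeR, and every adjusted p was 1. When transcript length and base composition entered the fit as an offset, Cox14 had a log2 fold change of -0.23 and Uqcc3 of -0.39, while Bola3 and Lap3 had -0.41 and -0.60.

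**Figure D2:**
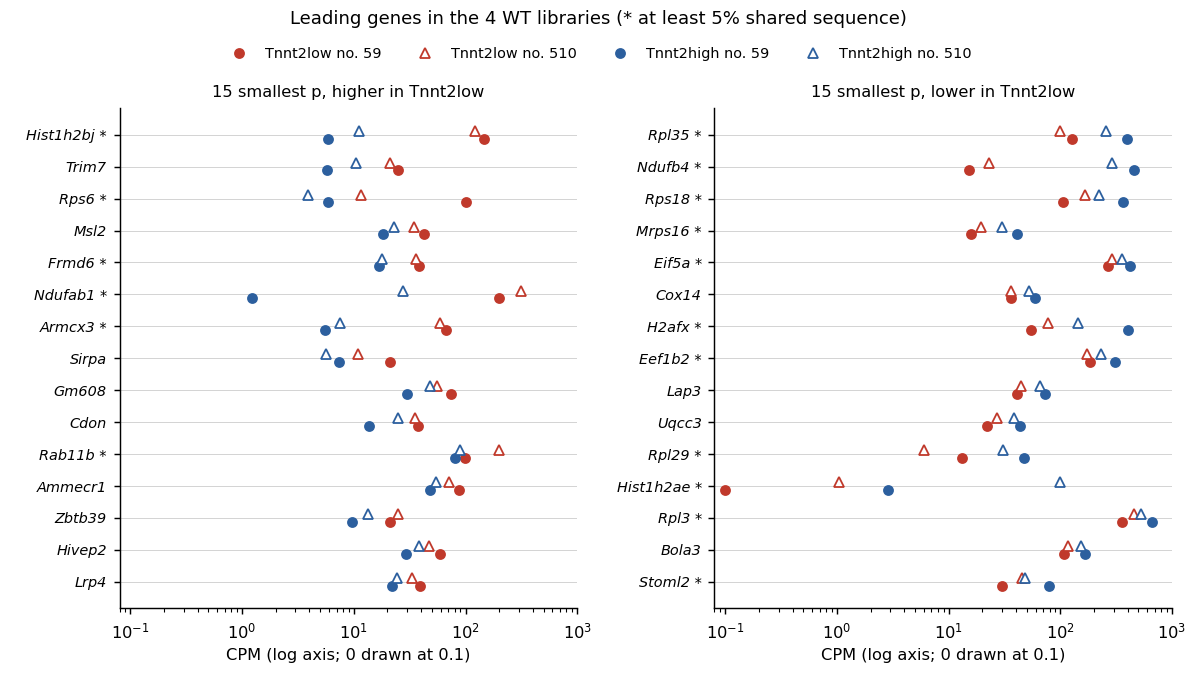
CPM on a log axis in the 4 WT libraries for the 15 genes with the smallest p that were higher (left) and the 15 that were lower (right) in Tnnt2low cells, among genes that averaged 10 CPM or more and whose populations were fully apart. Red is Tnnt2low and blue is Tnnt2high, filled circles are number 59 and open triangles number 510, and a star marks at least 5% shared sequence. In most rows the triangles lie closer together than the circles.

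The other 17 of the 30 genes (56.7%) shared at least 5% of their sequence with other genes, against 1110 of 7945 genes (13.97%) at this level with a known transcript. Shared sequence matters here because the authors' reads of 50 bases enter a gene's count only when they align to 1 place. For the 17 genes over 2-fold apart in the same direction in both pairs (9 higher and 8 lower), all but Trim7, or 94.1%, shared sequence. These were mostly histone and ribosomal protein genes and genes with processed copies, and their levels are uncertain. Of the 50 genes over 8-fold apart between replicates of 1 population, 35 (70%) also shared sequence.

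Hist1h2bj, a gene for core histone H2B on chromosome 13 from 22043214 to 22043676, had the smallest p of all genes. It stood at 146 and 121 CPM in Tnnt2low and at 5.91 and 11.2 CPM in Tnnt2high cells. Its log2 fold change was 3.94 (standard error 0.69, 95% interval 2.47 to 5.41, unadjusted p = 4.34e-05, adjusted p = 0.532 in edgeR), and the adjusted p with the block was 0.0461. Of the 378 bases of its coding sequence, 376 are the same in Hist1h2bq, and 82.8% of its coding words of 30 bases are found among 20 other genes. Hist1h2bq itself had no read in any WT library. The 50-base stretch with both differing bases, in capitals, is shown to let a reader see how little sequence separates the 2 genes. It lies at chr13:22043342-22043391 of mm10 on the plus strand in Hist1h2bj and at chr13:21810010-21810059 on the minus strand in Hist1h2bq, and both are written 5′ to 3′ along the gene.
Hist1h2bj: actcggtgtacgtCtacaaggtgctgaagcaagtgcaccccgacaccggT
Hist1h2bq: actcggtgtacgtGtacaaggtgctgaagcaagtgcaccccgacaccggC

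Rpl35, a protein of the large ribosomal subunit on chromosome 2 from 39001580 to 39005624, was the leading gene on the lower side. It read 127 and 99.8 CPM in Tnnt2low and 393 and 256.2 CPM in Tnnt2high cells, so that the difference was of similar size in both pairs (-1.63 and -1.36 on the log2 scale). The fit gave -1.52 (standard error 0.29, 95% interval -2.14 to -0.90, unadjusted p = 0.000111, adjusted p = 0.680 in edgeR), and the adjusted p with the block was 0.0461. Its coding sequence matches the gene Gm2000 at 368 of 369 bases. The base that differs is in capitals in these stretches from chr2:39004755-39004804 (minus strand) and chr1:156366145-156366194 (plus strand).
Rpl35: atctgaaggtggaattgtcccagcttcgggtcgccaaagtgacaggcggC
Gm2000: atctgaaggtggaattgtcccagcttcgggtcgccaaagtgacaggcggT

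Ndufb4, a subunit of respiratory complex I on chromosome 16 from 37647170 to 37654453, was also far lower in Tnnt2low cells. They read 15.3 and 22.9 CPM and Tnnt2high cells 459 and 291 CPM (log2 fold change -4.29, standard error 0.91, adjusted p = 1 in edgeR). It passed with edgeR without the filter on low counts (adjusted p = 0.000183), on the 4 WT libraries alone (adjusted p = 0.00212) and there with the block (adjusted p = 8.97e-12), and not with the block on all 12 libraries (adjusted p = 0.289). All 387 coding bases are found in Ndufb4c on chromosome 15, so a read that lies inside the coding sequence matches both genes. The first 50 coding bases, at chr16:37654310-37654359 (minus strand) and chr15:73809847-73809896 (minus strand), show this.
Ndufb4: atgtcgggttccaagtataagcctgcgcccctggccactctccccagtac
Ndufb4c: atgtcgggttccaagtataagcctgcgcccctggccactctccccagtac

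Rpl36a and Sumo2 had no read at all in one population. Rpl36a, a large-subunit ribosomal protein, read 58.5 and 37.4 CPM in Tnnt2low cells and 0 in both Tnnt2high libraries, which is at least 197-fold higher when 3 reads over the group are taken as the floor. Sumo2, a small protein that is attached to others, read 27.9 and 26.0 CPM in Tnnt2high and 0 in both Tnnt2low libraries, which is at least 119-fold lower. Both passed in edgeR with the block on the 4 WT libraries alone (adjusted p = 9.65e-14 and 8.97e-12) and neither with the block on all 12 (adjusted p = 0.953). Every coding word of 30 bases of Rpl36a is found among 15 other genes and of Sumo2 among 13. In the Glut1 transgenic libraries both genes varied widely within 1 population, with Rpl36a at 0.13 to 35.5 CPM in Tnnt2low and Sumo2 at 0 to 108 CPM in Tnnt2high cells.

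**Figure D3:**
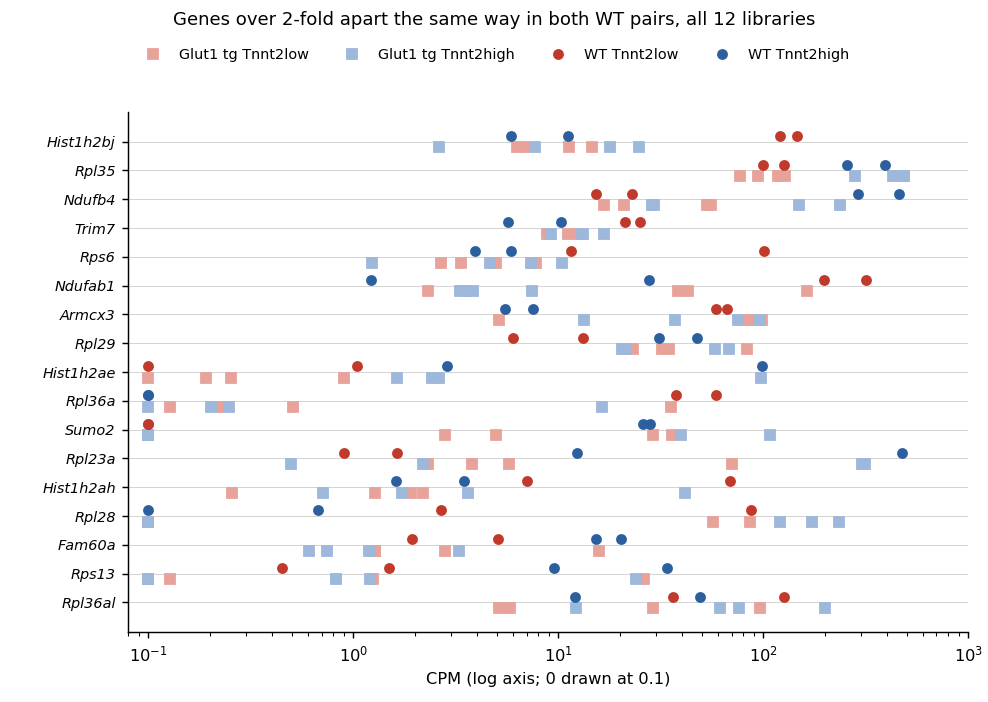
CPM on a log axis for the 17 genes that were over 2-fold apart in the same direction in both WT pairs, in the 4 WT libraries (circles) and the 8 Glut1 transgenic libraries (squares), with Tnnt2low in red and Tnnt2high in blue. In Rpl35 all 12 libraries separate by population, whereas in Hist1h2bj the 8 transgenic libraries lie between 2.61 and 24.6 CPM in both populations.

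Ndufab1, Armcx3 and Rps6 had large values of the same kind. Ndufab1, the acyl carrier protein of mitochondria, read 198 and 316 CPM in Tnnt2low against 1.22 and 27.7 CPM in Tnnt2high cells. Armcx3, a protein of the outer mitochondrial membrane, read 66.9 and 58.9 against 5.50 and 7.54 CPM. Rps6, of the small ribosomal subunit, read 101 and 11.5 against 5.91 and 3.90 CPM, and its log2 fold change of 3.53 was 1.24 without low 59. The value of Ndufab1, 4.10, was 7.70 without high 510. With the block on the 4 WT libraries alone all 3 passed in edgeR (adjusted p = 6.57e-10 for Ndufab1, 1.02e-08 for Armcx3 and 2.31e-05 for Rps6), and with the block on all 12 libraries none did. At least 97.3% of the coding words of each of these 3 genes are found elsewhere.

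Gene groups of mitochondria and translation had medians below 0, and these medians lay close to 0 in pair 510. Among 77 tested nuclear genes of respiratory complexes I to V, 74 (96.1%) had a log2 fold change below 0, against 50.2% of all tested genes. The median was -0.39, against -0.00 over all tested genes, and 22 (28.6%, background 1.91%) had an unadjusted p under 0.05 on the lower side. In pair 59 the median of this list was -0.83, and in pair 510 it was 0.02. Over all 4 libraries it was -0.15 without the Tnnt2low and -0.20 without the Tnnt2high library of pair 59, and -0.63 without the Tnnt2low library of pair 510. No member passed the adjusted threshold in the fit of all 12 libraries, and Ndufb4 and Ndufab1 passed in the settings named above.

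The abundant subunits show this pattern one by one. Atp5b, the beta subunit of ATP synthase, read 3808 and 5043 CPM in Tnnt2low and 5588 and 5185 CPM in Tnnt2high cells. Ndufb8 of complex I read 459 and 687 against 959 and 715 CPM. Sdha, the flavoprotein of complex II, read 1458 and 1630 against 1704 and 1659 CPM. In all 3 the Tnnt2low library of pair 59 was the lowest and the Tnnt2high library of pair 59 the highest. The libraries of pair 510 lay between them, close together.

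Other lists of mitochondrial genes had the same shape. Mitochondria keep ribosomes of their own, and of 77 genes for these 73 were below 0. An unadjusted p under 0.05 on the lower side was found for 11 (14.3%, background 1.91%). The median was -0.31, with -0.66 in pair 59 and -0.04 in pair 510. Without the Tnnt2high library of pair 59 the median was -0.15, and without that of pair 510 it was -0.53. This list was lower in both pairs for 47 genes (61.0%, against 25% of all tested genes). Mrps16, of the small subunit, was one of the 30 leading genes (15.9 and 19.4 against 40.5 and 30.02 CPM) and shares 6.56% of its sequence. Of 35 import and chaperone genes, 27 were below 0. On that side 4 (11.4%, background 1.91%) had an unadjusted p under 0.05, among them Chchd10, Hspe1 and Tomm22. The median of this list was -0.27, with -0.07 without high 59 and -0.15 without low 59.

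Genes of fuel use were lower by less. For 30 genes of fatty acid oxidation the median was -0.19 (-0.34 in pair 59 and -0.03 in pair 510). On the lower side 2 (6.67%, background 1.91%) had an unadjusted p under 0.05, Acads and Etfb. The median was -0.02 without low 59 and -0.40 without low 510. Fabp3, the fatty acid carrier of heart muscle, read 5503 and 8630 against 9450 and 8597 CPM. For 26 genes of the tricarboxylic acid cycle and pyruvate entry the median was -0.17, and it was -0.06 without low 59. Here 2 genes had an unadjusted p under 0.05 on the lower side (7.69%, background 1.91%), Mpc2 and Suclg1. For 26 glycolytic genes it was also -0.17, with 3 (11.5%, background 1.91%), Pgam2, Ldha and Eno3. It was 0.06 without high 59 and -0.38 without high 510, in fits that did not keep the pairs. In pair 59 the glycolytic median was -0.33. In pair 510 the medians of the last 2 lists were -0.00 and 0.03. The endogenous Glut1 gene of the mouse, Slc2a1, read 27.7 and 15.9 CPM in Tnnt2low against 28.9 and 13.3 CPM in Tnnt2high cells, so that the 2 numbers differed more than the 2 populations did.

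Cytosolic ribosomal protein genes had a median of -0.51 over 78 tested genes, with -1.05 in pair 59 and 0.00 in pair 510. An unadjusted p under 0.05 was found for 23 (29.5%, background 1.91%) on the lower side and 4 (5.13%, background 1.2%) on the higher side. Of these genes 75 shared sequence, and single members ranged from -7.57 to 11.28. The median was -0.26 without either library of pair 59 and -0.95 without the Tnnt2low library of pair 510. The abundant Rplp0 read 1088 and 1187 CPM in Tnnt2low against 1720 and 1261 CPM in Tnnt2high cells. Rps18 read 105 and 168 against 364 and 224 CPM, and its log2 fold change of -1.11 was -0.72 without high 59. For 17 translation factors the median was -0.26 (-0.16 without high 59, -0.17 without low 59 and -0.41 without low 510), and Eif5a, an elongation factor, read 264 and 288 against 421 and 357 CPM.

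Proteasome and histone genes were also below 0 as medians. Of 38 proteasome and ubiquitin genes 32 were below 0 (median -0.24, with -0.10 without low 59 and -0.52 without low 510). On that side 6 (15.8%, background 1.91%) had an unadjusted p under 0.05, with Psmc4 at 82.5 and 91.8 against 134 and 112 CPM. Clustered histone genes, whose transcripts lack long poly(A) tails, had a median of -0.46 over 53 tested of 68 genes, with -0.16 without low 59 and -1.03 without low 510. Their sum was 978 and 2067 CPM in Tnnt2low against 1592 and 2198 CPM in Tnnt2high cells. The replicates within a population differed more in this sum than the populations of pair 510 did. Hist1h1c, a linker histone, read 144 and 555 against 278 and 604 CPM.

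Sarcomere genes differed little in sum but not evenly. Of 34 genes 24 were below 0, with a median of -0.07. The median was -0.01 without low 59, -0.02 without high 510, -0.12 without high 59 and -0.27 without low 510. On the lower side 3 (8.82%, background 1.91%) had an unadjusted p under 0.05, Acta1, Myl3 and Tpm1. Myh6, the main myosin heavy chain of the adult mouse heart, read 68832 and 63903 CPM in Tnnt2low and 70082 and 64484 CPM in Tnnt2high cells (log2 fold change -0.02, 95% interval -0.27 to 0.23). Ttn, the giant spring of the sarcomere, was higher in Tnnt2low cells by the same log2 difference of 0.26 in both pairs, at 29322 and 40781 against 24498 and 34005 CPM. Its replicates differed more than that, and its 95% interval was -0.22 to 0.74. The ventricular light chain Myl2 read 10624 and 14688 against 18355 and 14082 CPM.

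Over 13 genes of the fetal heart the median was -0.12 (-0.41 without low 510), and 2 (15.4%, background 1.91%), Acta1 and Ldha, had an unadjusted p under 0.05 on the lower side. Nppa, the atrial natriuretic peptide, read 673 and 766 CPM in Tnnt2low against 1055 and 744 CPM in Tnnt2high cells, and Tnni1, slow skeletal troponin I, 1622 and 2078 against 2805 and 2052 CPM. Myh7, the fetal myosin heavy chain, read 1507 and 7091 against 1459 and 7108 CPM. It was close within each pair and several times higher in number 510 than in number 59. Myh6 and Myh7 share 29.8% and 23.5% of their sequence with other genes.

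Long transcripts of excitation and of chromatin were on the higher side. Of 31 genes of calcium handling and excitation 20 were above 0 (median 0.13, with 0.03 without high 59 and 0.25 without high 510). On that side 4 (12.9%, background 1.2%) had an unadjusted p under 0.05. Among them Ryr2, the calcium release channel, read 5846 and 5475 against 3737 and 5026 CPM, and Cacna1c, the L-type calcium channel, 672 and 635 against 406 and 594 CPM. The pump gene Atp2a2 read 8331 and 8444 against 7781 and 8374 CPM. Tmem38b, another of the 4, read 8.64 and 82.4 against 14.5 and 12.3 CPM and owes its value to 1 library.

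Chromatin genes with long transcripts were above 0 for 45 of 46 genes (97.8%), with a median of 0.35 (0.72 in pair 59 and 0.06 in pair 510), and of 0.17 without the Tnnt2high library of pair 59 and 0.61 without that of pair 510. Of these, 5 (10.9%, background 1.2%) had an unadjusted p under 0.05 on the higher side. Kmt2c, a histone H3 lysine 4 methyltransferase, read 162 and 137 against 91.5 and 128 CPM, and its relative Kmt2a 104 and 78.4 against 48.9 and 62.9 CPM. The list was higher in both pairs for 29 genes (63.0%, against 25.7% of all tested genes) and lower in both for 0. The list was chosen for long transcripts, and the values of all long transcripts are given with the lengths below.

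Genes of G2 and M phase had low unadjusted p-values at about the share of all tested genes. Over 70 genes of G2 and M phase the median was 0.16 and 50 were above 0, and 1 gene (1.43%, background 1.2%) had an unadjusted p under 0.05, H2afz, which shares sequence and passed in edgeR with the block on the 4 WT libraries alone (adjusted p = 0.00211). The median was 0.46 in pair 59 and -0.01 in pair 510, and it ran from -0.24 without the Tnnt2high library of pair 59 to 0.68 without that of pair 510. Mki67, the gene of the Ki-67 antigen of dividing cells, read 266 and 428 CPM in Tnnt2low against 154 and 408 CPM in Tnnt2high cells (log2 fold change 0.30, 95% interval -0.72 to 1.32). Top2a, which untangles chromosomes, read 138 and 194 against 112 and 197 CPM. Both genes were higher in number 510 than in number 59 in each gate.

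For 61 S-phase genes the median was -0.16 (0.02 without low 59, -0.06 without high 510 and -0.29 without low 510) and 43 were below 0. None had an unadjusted p under 0.05 in either direction. The background is 1.2% higher and 1.91% lower, at which few of 61 genes would have one. Mcm5, of the replicative helicase, read 25.02 and 27.1 against 42.6 and 33.7 CPM, and Rrm2, of ribonucleotide reductase, 71.0 and 98.7 against 57.2 and 108 CPM. Of 18 genes of CDK inhibition and cell cycle exit 9 were on each side (median 0.04). The median was -0.14 without high 59 and 0.27 without high 510, in fits that did not keep the pairs. Within the pairs it was 0.27 in pair 59 and -0.11 in pair 510. Cdkn1b, a CDK inhibitor, read 48.7 and 49.4 against 32.8 and 48.2 CPM, and Meis1, a homeobox factor, 62.0 and 39.8 against 38.5 and 38.5 CPM.

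Signalling genes gave a few members with low unadjusted p. Of 25 genes of the Notch, Wnt and Hippo pathways, 3 (12%, background 1.2%) were on the higher side, Frmd6, Yap1 and Tead1. Notch3 (4%, background 1.91%) was on the lower side. Frmd6, a FERM protein upstream of Hippo, read 38.0 and 35.9 CPM in Tnnt2low against 16.9 and 17.9 CPM in Tnnt2high cells, nearly the same gap in both pairs (1.15 and 0.99 on the log2 scale). It shares 17.4% of its transcript with the gene Gm5780, which limits this value. Yap1, the coactivator that Hippo restrains, read 96.0 and 86.4 against 60.9 and 72.3 CPM, and its partner Tead1 320 and 323 against 171 and 292 CPM. Of 23 growth factor and receptor genes 18 were above 0 (median 0.25, with 0.16 without high 59 and 0.47 without high 510), and none of these had an unadjusted p under 0.05. On the lower side 1 gene had one (4.35%, background 1.91%), Pdgfrb, whose levels are given with the pericyte markers below. Irs1, an adaptor of the insulin receptor, read 133 and 130 against 42.8 and 123 CPM, so that the Tnnt2high library of pair 59 was the one that differed.

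Of 28 immediate early genes, induced within minutes of a stimulus, 16 were above 0 and none had an unadjusted p under 0.05. Fos read 201 and 79.6 against 68.2 and 90.2 CPM and Fosb 86.2 and 21.1 against 21.8 and 20.6 CPM, both highest in the Tnnt2low library of pair 59. Of 19 heat shock genes 2 (10.5%, background 1.91%), Hspa8 and Hspe1, had an unadjusted p under 0.05 on the lower side. Of 20 hypoxia targets 1 (5%, background 1.2%), the growth factor gene Vegfa, had one on the higher side. It read 280 and 196 against 138 and 199 CPM. Of 26 cardiac transcription factors Myocd alone (3.85%, background 1.2%) did, at 361 and 317 against 218 and 297 CPM. Of nuclear-retained RNAs, 6 were tested, with a median of 0.50 (0.92 in pair 59 and 0.08 in pair 510, 0.06 without low 59 and 0.94 without low 510), and Malat1 read 12636 and 6959 against 9339 and 6641 CPM.

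**Figure D4:**
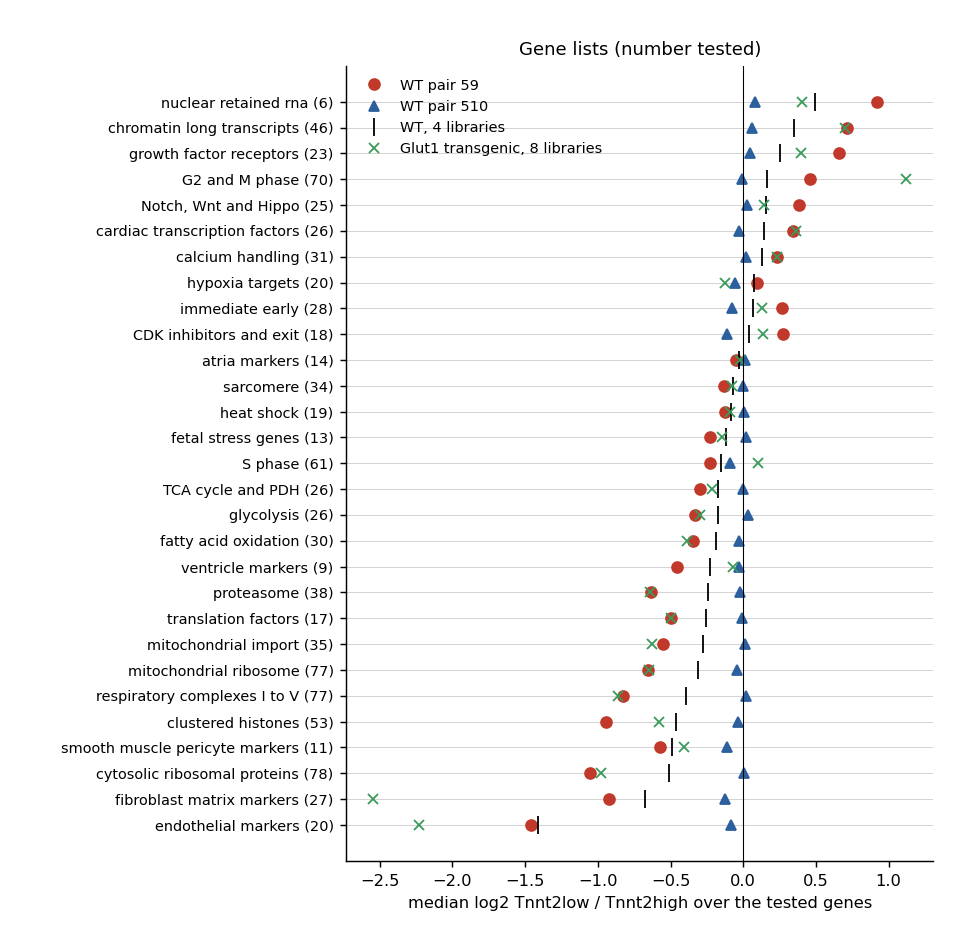
Median log2 ratio of Tnnt2low over Tnnt2high for each list with at least 5 tested genes, in WT pair 59 (red circles), WT pair 510 (blue triangles), the WT comparison in the fit of all 12 libraries (black bars) and the 8 Glut1 transgenic libraries (green crosses). The blue triangles all lie between -0.13 and 0.08, while the red circles run from -1.46 (endothelial markers) to 0.92 (nuclear-retained RNA).

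Markers of other cells were read at unequal levels in the 4 libraries, and the endothelial markers differed by number. Cardiomyocyte genes led all 4 libraries, and the sum of 34 sarcomere genes was 176237 to 206340 CPM. Of 20 endothelial markers 18 were below 0 (median -1.41), and Kdr, a receptor for VEGF, read 11.02 and 2.84 CPM in Tnnt2low against 90.6 and 4.04 CPM in Tnnt2high cells. The median was 2.04 without high 59, -4.05 without low 59, -0.56 without low 510 and -2.36 without high 510. These fits did not keep the pairs, and the markers also differed between the numbers. Within the pairs the median was -1.46 in pair 59 and -0.08 in pair 510, so its size rests on pair 59. Kdr and Fabp4 (2 of 20, 10%, background 1.91%) had an unadjusted p under 0.05. With the block on the 4 WT libraries alone their adjusted p was 0.00689 and 0.0183 in edgeR, and 0.953 for both with the block on all 12.

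For 27 fibroblast and matrix genes the median was -0.67, and 2 (7.41%, background 1.91%) had an unadjusted p under 0.05 on the lower side. The median was 0.18 without high 59, -0.36 without low 510, -1.13 without low 59 and -1.28 without high 510. Those fits did not keep the pairs, and within the pairs it was -0.92 in pair 59 and -0.13 in pair 510. Their sum was 1188 and 1042 CPM in Tnnt2low against 2085 and 1096 CPM in Tnnt2high cells. Vim read 222 and 194 against 437 and 200 CPM. Of 11 tested smooth muscle and pericyte markers, several of which heart muscle also expresses, 2 (18.2%, background 1.91%) had an unadjusted p under 0.05 on the lower side. The sum of this set was 1516 to 1785 CPM in the 4 libraries, with Pdgfrb at 0.149 and 0.449 against 11.8 and 0.673 CPM. All 3 sets were thus highest in the Tnnt2high library of pair 59, and their part in the other values of that library was not tested.

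Blood cells gave little signal. Of 15 leukocyte markers 14 were under 1 CPM in every WT library, 5 had no read, and Csf1r and C1qc were at 0 in all 4. Their sum was 3.57 and 2.69 CPM in Tnnt2low and 2.65 and 1.21 CPM in Tnnt2high cells. The erythroid sum was 29.6 and 1.79 against 4.48 and 2.96 CPM, mostly from Alas2. Epicardial markers summed to 15.2 to 21.1 CPM and neural markers to 14.9 to 20.8 CPM. Atrial markers had a median of -0.03 over 14 genes (-0.26 without low 510 and 0.20 without high 510) with none at an unadjusted p under 0.05. Ventricular markers had -0.23 over 9 genes (-0.12 without low 59), of which Myl3 (11.1%, background 1.91%) had one on the lower side.

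Some genes differed between the numbers 59 and 510 in both gates. By a count made after the values had been seen, 52 of 7962 genes (0.653%) had both libraries of number 59 over 2-fold above both of number 510, and 29 (0.364%) the reverse. The same count for the gates gave 8 genes higher (0.1%) and 9 lower (0.113%) in Tnnt2low cells. With under 5% shared sequence, the numbers gave 45 and 15 genes and the gates 1 (Trim7) and 0. Among the 45 genes were endothelial markers such as Cdh5 (31.3 and 107 CPM in number 59 against 4.04 and 4.58 CPM in number 510) and the matrix gene Fn1 (113 and 95.3 against 23.9 and 20.5 CPM). Among the 15 were Ctgf, a target of YAP (93.5 and 60.7 against 361 and 380 CPM), the clock gene Per1 (53.6 and 42.6 against 147 and 165 CPM) and Ccne1, cyclin E1 (6.70 and 5.70 against 15.3 and 16.2 CPM).

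The difference between the gates followed transcript length in pair 59 and not in pair 510. Over 7945 genes the Spearman correlation of the log2 difference with length was 0.55 in pair 59 and 0.04 in pair 510, across genes that share their libraries. Among the 1987 genes with the shortest transcripts (110 to 2391 bases) the median was -0.44 in pair 59 and 0.00 in pair 510, and among the 1986 with the longest (5189 to 106824 bases) it was 0.38 and 0.02. Of the genes at an unadjusted p under 0.05 on the lower side, 120 were in the shortest class and 7 in the longest. On the higher side 7 were in the shortest and 81 in the longest class. With the offset for length and base composition, the medians of the respiratory complexes and of the chromatin genes were -0.12 and 0.23. Those of the mitochondrial ribosome, import, cytosolic ribosomal protein and histone lists were -0.14, -0.06, -0.27 and -0.17. The proteasome list had -0.13, translation factors -0.12, glycolysis -0.05, fatty acid oxidation -0.11 and ventricular markers -0.02, and atrial markers 0.07.

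**Figure D5:**
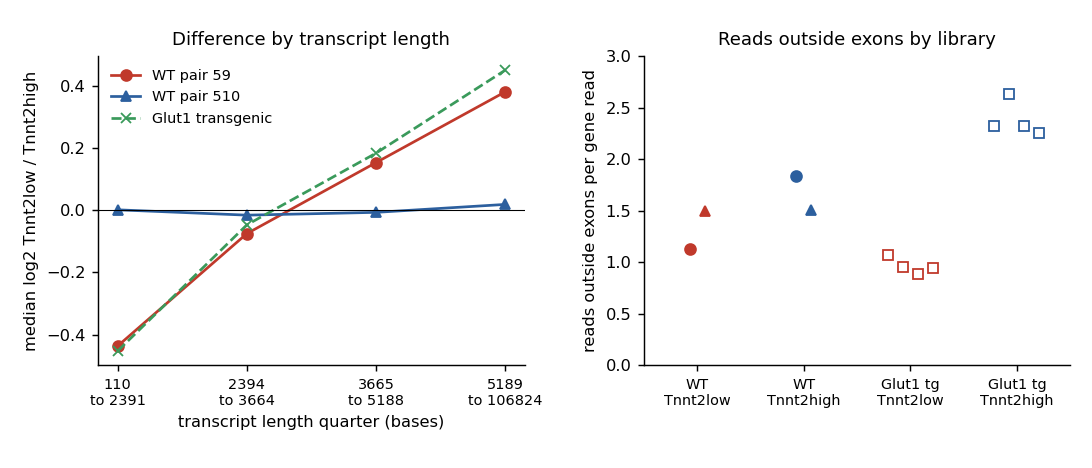
Left, median log2 ratio of Tnnt2low over Tnnt2high in 4 equal classes of transcript length (bases) for WT pair 59, WT pair 510 and the Glut1 transgenic hearts, which runs from -0.44 to 0.38 in pair 59 and stays between -0.02 and 0.02 in pair 510. Right, reads outside exons per gene read in each of the 12 libraries, with number 59 as circles, number 510 as triangles and transgenic hearts as squares, and Tnnt2low in red. The gap between the gates is wide in pair 59 (1.13 and 1.83), small in pair 510 (1.495 and 1.510) and wide in the transgenic hearts.

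Some lists far from 0 in pair 59 hold short or long transcripts, and others do not. The median transcript of the respiratory complexes is 1141 bases and that of the cytosolic ribosomal proteins 1077 bases, and the median of the chromatin genes is 9454 bases. The endothelial markers, with a median of -1.46 in pair 59, have a median transcript of 3610 bases, close to the 3664 bases of all genes at this level, and the fibroblast and matrix genes (-0.92) have 4786 bases. Transcript length, reads outside exons and endothelial markers all moved with the gate in pair 59, and each differed far less in pair 510. Their part in the values of pair 59 was not tested.

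In the Glut1 transgenic hearts the same comparison gave more called genes, 712 higher (5.81%) and 800 lower (6.53%). Those 8 libraries are none of the WT libraries, although one fit holds both. Across the 7962 genes, the log2 differences of pair 59 correlated with the transgenic fold changes at a Spearman coefficient of 0.67, and those of pair 510 at 0.02. The share with the same sign was 76.3% in pair 59 and 50.3% in pair 510. These are descriptions across genes, and transcript length moved with both pair 59 and the transgenic values.

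No gene differed between the genotypes in the size of the population difference once p was adjusted. The interaction gave 0 of 12252 genes (0%) at an adjusted p under 0.05 in edgeR and 554 (4.52%) at an unadjusted p under 0.05. Hist1h2bj had the smallest p for it, at 9.74 ± 3.94 CPM (SD, n = 4) in transgenic Tnnt2low and 13.2 ± 9.92 CPM (SD, n = 4) in transgenic Tnnt2high cells, where WT Tnnt2low cells alone had 146 and 121 CPM. The WT minus transgenic difference was 4.35 on the log2 scale (adjusted p = 0.698 in edgeR). Trim7 read 8.80 to 12.3 CPM in transgenic Tnnt2low and 9.17 to 16.7 CPM in transgenic Tnnt2high cells, with no gap like that in WT (interaction 1.84 on the log2 scale, adjusted p = 0.961 in edgeR).

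Genes of G2 and M phase and of respiration had the highest shares of low interaction p-values among the lists of at least 20 tested genes. The median of G2 and M genes was 1.12 in the transgenic and 0.16 in the WT comparison. Of 70 genes, 32 (45.7%, background 5.81%) were called higher in transgenic Tnnt2low cells. In WT 0 were, but there 0 of all 12252 tested genes were called, with 2 libraries a gate against 4. An interaction at an unadjusted p under 0.05 in edgeR was found for 18 (25.7%, background 4.52%). For Mki67 the WT log2 fold change of 0.30 stood against 1.94 in the transgenic hearts (interaction -1.64, unadjusted p = 0.0143, adjusted p = 0.961 in edgeR). The respiratory complexes had 26 such genes of 77 (33.8%), with medians of -0.39 in WT and -0.86 in the transgenic hearts. For that list pair 59 alone had a median of -0.83.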

How the data were processed

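RNA was sequenced from postnatal day 1 cardiomyocytes in 12 libraries, 4 of them WT. The labels give heart tissue as the source of the RNA, whereas the study's methods describe sorted cells. Per the study's methods, the authors trimmed single-end reads of 50 bases, aligned them with HISAT2 to mm10 and counted them over exons with HTSeq, and they deposited raw counts per gene. The methods name the UCSC annotation of mm10, and tool versions and the strand setting are not given there. The 5 summary rows that name no gene (reads outside exons were 33.9% to 42.0% of the records of the WT libraries, and reads aligned to several places 34.5% to 35.9%) were left out of library sizes and tests.

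Counts were scaled by TMM and tested with edgeR 4.0.16 in R 4.3.3 (filterByExpr on the 4 groups, quasi-likelihood, all 12 libraries, Benjamini-Hochberg adjusted over 12252 genes). A gene was called at an adjusted p under 0.05 and a fold over 1.5. CPM used no prior count, and log2 ratios of a pair a prior of 2 reads. Intervals are at 95%. DESeq2 1.42.0, RLE size factors, no filter, WT libraries only, a replicate block, an offset for length and GC content, a robust fit and leaving out each library were alternatives.

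Replicate numbers are shared between the gates. The deviations of same-numbered libraries from their group means correlated at 0.271 in WT and at 0.107 to 0.226 in the 4 transgenic hearts, so the numbers were taken to pair the libraries. Blocked values are given beside the genes described singly whose call they change. Among the leading genes not described, H2afx, Hist1h2ae and Rpl29 passed in edgeR with the block on the 4 WT libraries alone (adjusted p = 0.00158, 2.22e-11 and 8.57e-05). With the block on all 12 libraries these did not pass.

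Named genes were Tnnt2, the 15 genes of smallest p in each direction among those averaging at least 10 CPM with fully separate populations, and in each of 33 lists up to 4 genes of smallest p per direction and 4 of highest level. The genes of the 2-fold sets and of the numbers (Sumo2, Per1 and Ccne1 among them) were chosen after their values were seen. The comparison and the lists were chosen with earlier results of these data known.

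Gene models, lengths and sequences came from GENCODE vM21 (mm10), in which 24046 of 24421 genes matched, 670 of them by an older symbol. Sequence counted as shared when at least 5% of a gene's 30-base words lay in transcripts of another gene that does not overlap it.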

Additional observations from a re-analysis of the deposited data

How the results depend on the processing

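Calls between the WT populations were few under every setting. Genes called higher and lower numbered 1 and 1 with the replicate block, 3 and 2 with only the 4 WT libraries, and 11 and 19 with both. They numbered 3 and 3 with no filter on low counts. DESeq2 gave 1 and 2 on 12 libraries and 4 and 6 on the 4 WT libraries. RLE size factors, the offset, the offset with the block and the robust fit gave 0 and 0. Leaving out 1 library gave 0 to 1 in each direction. The names were Irs1 (higher) without the Tnnt2high library of pair 510, Psma5 (lower) without the Tnnt2low library of pair 510, Gm6654 (lower) without the Tnnt2high library of pair 59, and Hist1h2bj (higher) without the fourth transgenic Tnnt2high library. The interaction gave 9 genes with no filter, 5 with DESeq2 on 12 libraries, 0 to 1 when 1 library was left out, and 0 otherwise, the replicate block included.

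The Tnnt2 level, WT Tnnt2low over Tnnt2high, was -0.0901 to 0.00828 (log2) over the leave-one-out fits, and turned positive without the Tnnt2low library of pair 59 (0.00557) and without the Tnnt2high library of pair 510 (0.00828). These fits did not keep the pairs, and within the pairs Tnnt2low cells had 96.8% and 97.3% of the level of Tnnt2high cells. Of the leading genes no value reversed, in 28 settings of single genes one passed the threshold, and 632 stayed on the same side. The leading genes were chosen with fully separate populations, so leaving out a library could hardly reverse them. The lack of reversals is therefore no sign of stability. Of the list medians 18 moved by more than the spread and 620 did not. The spread here is the SD between the medians of pair 59 and pair 510. It is wide where the pairs disagree, so these counts cannot show that the medians were stable. The largest moves came with single WT libraries. The cause was not tested. The design has 2 libraries a gate that may share an animal, and 1 number in which the gates also differ in reads outside exons. Counts of genes with near-identical copies are limited by the read length.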
